A study of Mus musculus with 6 samples.

Results

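The genes described here are 83 of 22219 protein-coding mouse genes (NCBI Build 37, mm9) that encode heat shock proteins, chaperones and the heat shock factor Hsf1. They were chosen by name: symbols that begin with Hspa, Hspb, Hsp90, Dnaja, Dnajb, Dnajc or Bag and a number, together with Hspd1, Hspe1, Hsph1, Unc45a, Unc45b, Smyd1, Cryab and Hsf1. By role they fall into 14 genes of the HSP70 and HSP110 families, 6 of HSP90 and myosin chaperones, 9 small heat shock proteins, the 2 genes of the mitochondrial chaperonin, 4, 13 and 28 J proteins of classes A, B and C, 6 BAG proteins and Hsf1. The rule uses symbols alone and no measured value, although the set was picked with earlier results of these data known.

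HSP70 binds exposed hydrophobic stretches of unfolded proteins and releases them in cycles of ATP hydrolysis. J proteins bring it substrates and start the hydrolysis, and BAG and HSP110 proteins exchange its nucleotide. HSP90 completes the folding of kinases, receptors and, in muscle, myosin, which also needs the UCS protein Unc45b and the methyltransferase Smyd1. Small heat shock proteins hold partly unfolded proteins without ATP, and several of them bind desmin, titin or actin at the sarcomere. Hsf1 is the transcription factor that switches many of these genes on in heat or other protein stress, when it binds arrays of inverted GAA repeats known as heat shock elements.

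Chromatin came from wild-type C57BL/6 mice: myoblasts were prepared from limb muscle of E18.5 fetuses, used at passage 17 and kept for 48 h in 2% horse serum to form myotubes. All cells were of this genotype and treatment, and the groups are defined by the immunoprecipitation: Sox6, RNA polymerase II (Pol II), and Input, the chromatin that was not immunoprecipitated, with 2 libraries each. Sox6 is a transcription factor of the HMG box class that is known as a repressor of slow fiber genes in fetal muscle. The comparisons ask where Pol II and Sox6 were bound above input at the start and along the body of each gene. The methods call the experiments of an antibody independent, but nothing in the labels says that the 2 libraries of a group come from separate animals. The p-values therefore measure the spread between these libraries only, and largely as pooled over genes. At the start the pooled spread alone is used, so a gene whose own 2 libraries disagree gets no larger standard error for it.

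The Sox6 libraries hold 2985437 and 1468604 mapped reads, the Pol II libraries 1538757 and 2762155 and the inputs 21973495 and 24249850, and reads are 36 bp long in Input replicate 1 and 39 bp in the others. At this depth the median start window of the chaperone genes held 4 and 8 Pol II reads and 2 and 1 Sox6 reads, so single genes are measured coarsely. Of the myotube genes Myog, Ckm, Acta1, Actc1, Des, Myh3, Tnnt3 and Tmem8c, 8 of 8 had more Pol II than input in the gene body, at 2.15 to 103 reads per kilobase and per 1000000 mapped reads (RPKM). None of the 4 fibroblast, 3 endothelial and 2 neuronal markers did, and their bodies held 0.0481 to 0.637 RPKM of Pol II. Of the muscle progenitor markers, Pax7 was higher than input at the start (log2 ratio 2.04) and in the body, at 1.17 and 1.22 RPKM (1.22, adjusted p = 2.17e-09), and Pax3 was higher at the start (2.70) and lower in the body (-0.77). Of the blood markers, Ptprc was at 0.174 and 0.139 RPKM, while Cd68 was at 4.51 and 6.53 RPKM, above its inputs of 0.790 and 0.859. The part of other cell types in the values of the chaperone genes was not tested.

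Some promoters carry the sequences for which this gene set is known, and they are printed here so that the Pol II values further on can be read beside them. The 3-unit heat shock element GAANNTTCNNGAA, searched on both strands from 250 bases before to 50 bases after each start, was found at 3 of the 83 genes (3.61%) and at 0.486% of all promoters. Hspd1 and Hspe1, whose proteins form the mitochondrial chaperonin barrel and its lid, share a single such promoter, since their starts lie 108 bp apart on opposite strands. The run between both starts (chr1:55144869-55144975, read on the strand of Hspd1, mm9) holds overlapping matches in capitals that begin 52 bases before the start of Hspd1, and that of Hsph1, an HSP110 (chr5:150438747-150438946, minus strand), holds its match 129 bases before the start:
Hspd1 and Hspe1: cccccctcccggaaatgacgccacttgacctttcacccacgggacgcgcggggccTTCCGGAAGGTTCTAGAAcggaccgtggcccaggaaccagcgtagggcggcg
Hsph1: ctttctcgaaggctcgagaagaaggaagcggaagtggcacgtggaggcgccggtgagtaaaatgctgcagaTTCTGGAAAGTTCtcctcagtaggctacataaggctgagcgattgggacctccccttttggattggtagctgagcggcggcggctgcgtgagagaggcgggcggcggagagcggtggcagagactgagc

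The ER stress element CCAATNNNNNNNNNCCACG, which is bound by ATF6 with NF-Y when unfolded proteins collect in the endoplasmic reticulum (ER), was found at 3 of the 83 genes (3.61%) and at 0.104% of all promoters. All 3 encode ER proteins: Hspa5 (BiP, the HSP70 of the ER), Hsp90b1 (GRP94, its HSP90) and Dnajc3 (a J protein of the ER). The 200 bases before each start are given on the strand of the gene, with the element in capitals, from chr2:34627412-34627611 (plus), chr10:86168255-86168454 (minus) and chr14:119336954-119337153 (plus):
Hspa5: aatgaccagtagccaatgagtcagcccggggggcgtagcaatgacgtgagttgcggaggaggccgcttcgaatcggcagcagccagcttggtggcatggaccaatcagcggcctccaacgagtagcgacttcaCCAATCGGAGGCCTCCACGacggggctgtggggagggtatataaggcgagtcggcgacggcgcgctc
Hsp90b1: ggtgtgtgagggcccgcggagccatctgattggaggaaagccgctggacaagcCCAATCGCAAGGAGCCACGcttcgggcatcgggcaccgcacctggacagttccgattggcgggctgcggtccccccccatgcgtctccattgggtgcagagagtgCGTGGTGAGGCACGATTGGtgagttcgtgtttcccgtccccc
Dnajc3: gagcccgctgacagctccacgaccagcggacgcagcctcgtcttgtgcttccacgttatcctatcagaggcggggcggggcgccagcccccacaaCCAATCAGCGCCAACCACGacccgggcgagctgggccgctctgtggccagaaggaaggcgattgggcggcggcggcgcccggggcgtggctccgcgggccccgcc

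Hsp90b1 has this element in both orientations, 147 and 42 bases before its start, while Hspa5 has it 67 and Dnajc3 105 bases before. The element contains a CCAAT box, and CCAAT alone was in 38.6% of the chaperone promoters and 37.7% of all. Heat shock elements of 2 units (GAANNTTC or TTCNNGAA), which every 3-unit element contains, were in 22.9% against 14.1%, and the TATA box (TATAAA) in 8.43% against 13.3%. A match is a run of letters and does not show that a factor was bound, and a gene without a match in this window may have one elsewhere.

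**Figure D1:**
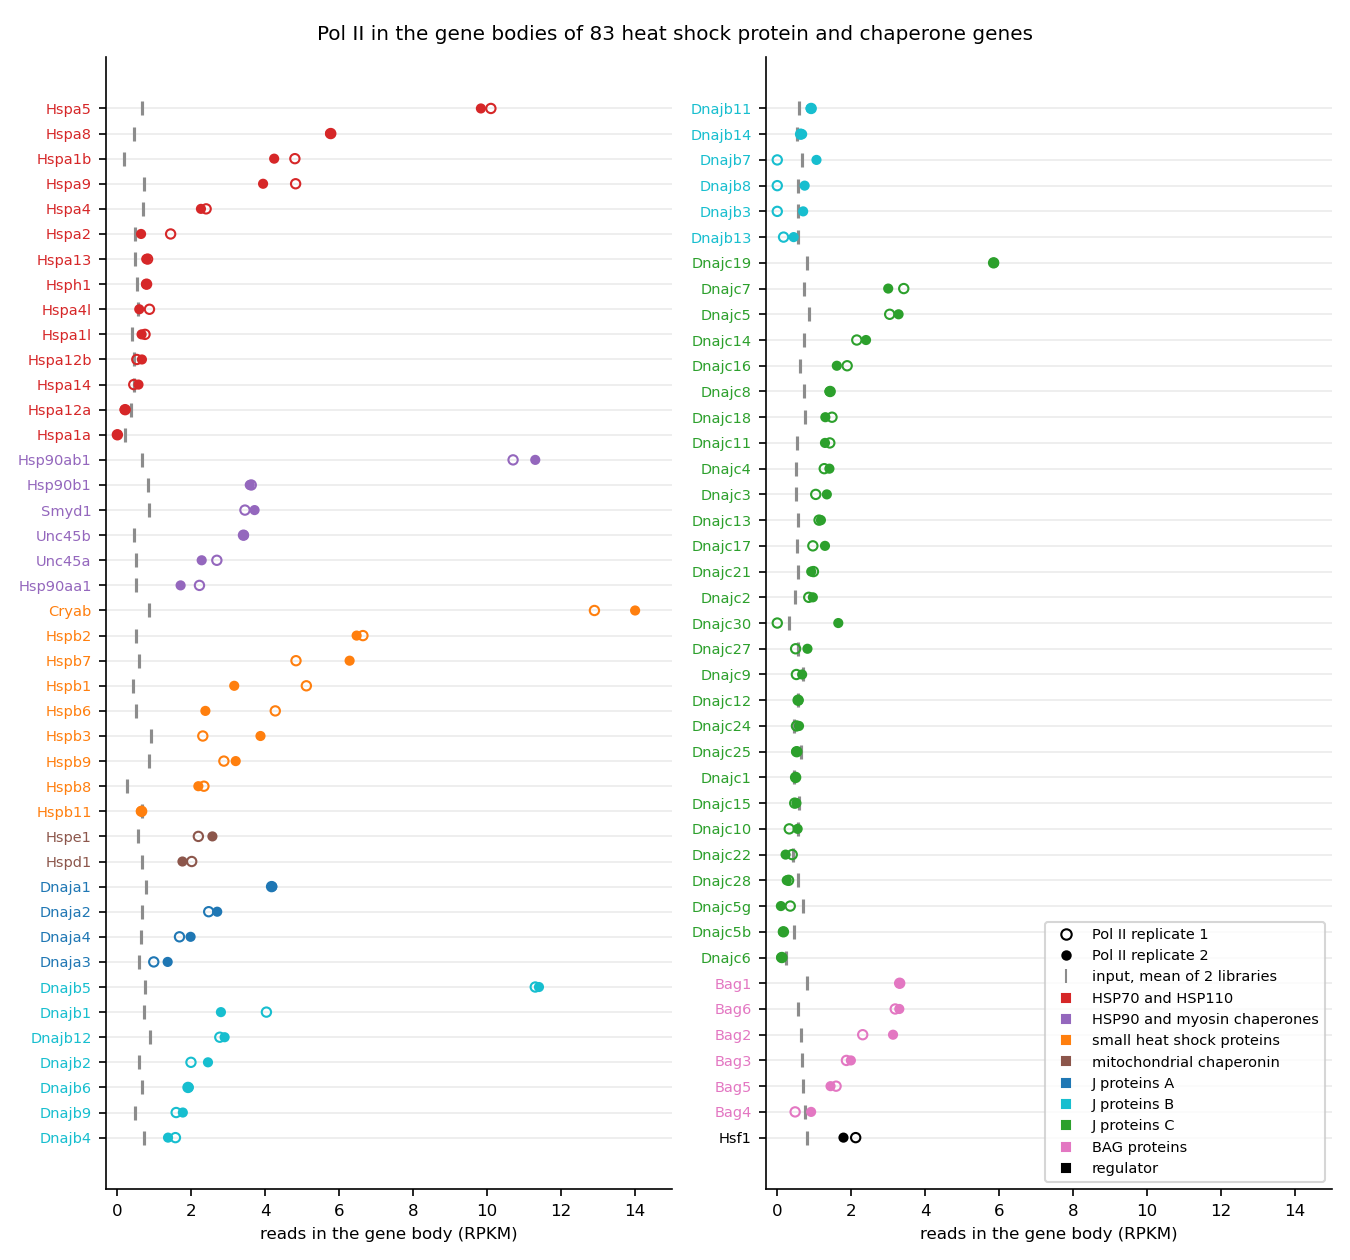
Pol II reads in the gene body of each of the 83 genes, in RPKM, with open points for replicate 1, filled points for replicate 2 and a bar for the mean of the 2 inputs. Colours are the role groups; Cryab, Dnajb5, Hsp90ab1 and Hspa5 lie highest, and many J proteins of class C lie near or under their inputs.

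Pol II was above input at most of these genes. In the start window (500 bp on each side of the start) 64 of the 81 genes with enough reads to test had more Pol II than input (79.0%), where 45.2% of all 17661 genes tested did and 1.14% were lower; a gene counts as higher or lower here at an adjusted p under 0.05 by limma. In the gene body, from 500 bp after the start to the end of the gene, 55 of 83 were higher (66.3%) and 4 were lower, against 37.7% higher and 22.8% lower of all genes. The median log2 ratio of Pol II to input was 2.63 over the chaperone genes and 1.40 over all genes at the start, and 1.33 against 0.15 in the body. The 2 replicates gave median body levels of 1.57 and 1.44 RPKM for the chaperone genes and 0.405 in both for all genes, while their inputs lay at 0.585 and 0.590. In such bulk chromatin, Pol II in a larger share of the cells and more Pol II per cell cannot be told apart.

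By gene, 50 of the 83 were higher than input in both windows (60.2%, against 24.7% of all 22219 genes), 14 at the start only (16.9%, against 11.2%), 5 in the body only (6.02%, against 8.12%) and 14 in neither (16.9%, against 56.0%). Genes with too few reads to test count here as not higher. They are 2 of the 83 at the start, while only 17661 of all genes were tested at the start and 19370 in the body. The 4 genes with less Pol II than input in the body were Hspa12a, Dnajc5b, Dnajc5g and Dnajc6, of which Dnajc6 encodes auxilin, a J protein that uncoats clathrin vesicles. Both libraries lay above both inputs in reads per 1000000 mapped reads (RPM) for 66 genes at the start (79.5%, against 42.2% of all) and 63 in the body (75.9%, against 38.6%). Of the start calls 51 of 64, and of the body calls 49 of 55, held when each library was left out in turn. Over the 18 alternatives at the start that remain without 3 in which the shared spread was inflated, 14 of the 64 calls were lost in at least 1, and another 14 were not lost but had too few reads to test in some; 36 held in every one. The shares of calls that held in these ways were not counted over all genes. Scaled to background regions far from genes and peaks, in place of all mapped reads, the median of all genes moved from 1.40 to 2.86 at the start and from 0.15 to 1.62 in the body, and that of the chaperone genes to 4.07 and 2.80; lower calls in the body then went from 4415 to 124 over all genes, and none of the 4 chaperone genes was called lower. A low ratio is therefore low relative to the library as a whole.

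**Figure D2:**
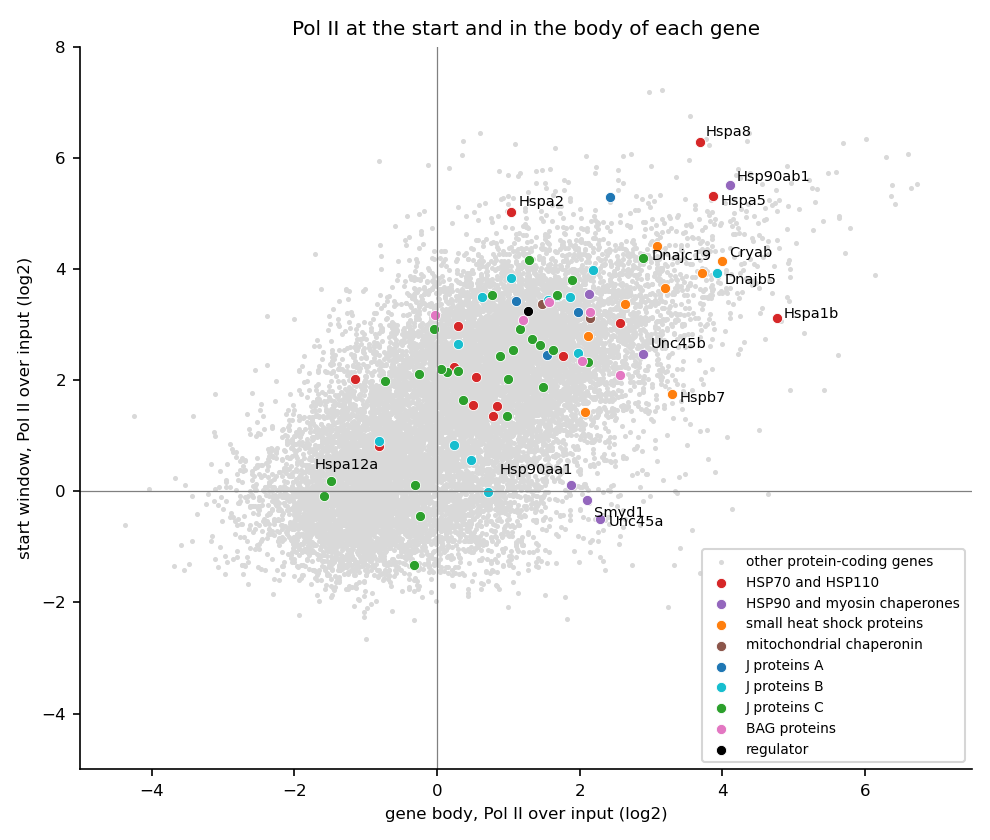
Log2 ratio of Pol II to input in the start window (y axis) against that in the gene body (x axis), for the 81 genes tested in both windows in the colours of their role groups and for all other protein-coding genes in grey. Hspa8, Hsp90ab1, Hspa5 and Cryab lie at the upper right, Hspa2 has a high start and a low body, and Smyd1, Unc45a and Hsp90aa1 have a high body and a start near 0; Smyd1 and Dnajc25 have no Pol II read at the start, so their height depends on the 0.5 reads added by the fit.

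Of the 14 genes of the HSP70 and HSP110 families, 10 were higher at the start (median log2 ratio 2.33) and 7 in the body (median 0.81), and Hspa12a was lower in the body. Hspa5, which folds secreted and membrane proteins in the ER, had 32 and 49 Pol II reads in its start window (20.8 and 17.7 RPM) against 3 and 31 input reads (0.137 and 1.28 RPM). Both libraries lay far above both inputs, with a log2 ratio of 5.31 ± 0.45 (SE; adjusted p = 8.95e-30), and the body held 10.1 and 9.83 RPKM (log2 ratio 3.87 ± 0.21). Hspa8, the constitutive cytosolic HSP70, had 17 and 31 start reads (11.0 and 11.2 RPM) against 4 and 2 input reads, a log2 ratio of 6.29 ± 0.73. Its body held 5.77 and 5.75 RPKM of Pol II, on 0.318 and 0.599 of input; a 39-base read is unique at 55.5% of the positions of this body, so that these levels are understated beside those of genes with a fully unique body.

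Hspa2, an HSP70 best known from the testis, combined a full start window with a body that was sparse beside it. It had 15 and 29 Pol II reads at the start (9.75 and 10.5 RPM, log2 ratio 5.03 ± 0.57). Of these, 2 in replicate 1 and 14 in replicate 2 fell in 1 run of 50 bp (chr12:77505417-77505466). The body held 1.44 and 0.641 RPKM on 0.383 and 0.584 of input, a log2 ratio of 1.04 ± 0.55 that did not pass the test (adjusted p = 0.113). It passed without Pol II replicate 2 (1.70, adjusted p = 0.0414), without Input replicate 2 (1.38, 0.0361) and with 2 reads added (1.44, 0.0192), as well as with scaling to background (2.51) and over the whole gene, start included (3.22). The 2 added reads are the same in every library, so by construction they raise the shallower Pol II libraries more than the inputs. Hspa9, the HSP70 of the mitochondrial matrix, had 6 and 16 start reads (3.90 and 5.79 RPM; log2 ratio 3.03 ± 0.53) and 4.82 and 3.94 RPKM in the body (2.56 ± 0.14). Hspa12a, a distant relative of HSP70 with a divergent ATPase domain, was at the other end, with 0 and 1 start reads and 0.211 and 0.196 RPKM in the body on 0.361 in each input (log2 ratio -0.82 ± 0.24, adjusted p = 0.00583). That lower call was lost without Pol II replicate 2 (adjusted p = 0.0815). Hsph1, with its heat shock element, was modest: 4 and 5 start reads (2.60 and 1.81 RPM; log2 ratio 2.06 ± 0.69) and 0.790 and 0.779 RPKM in the body, where the call was lost without either Pol II library (adjusted p = 0.161 and 0.157), as was that at the start without Input replicate 1 (adjusted p = 0.0693).

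The stress-inducible pair Hspa1a and Hspa1b are near-identical copies on chromosome 17, and reads that fit both were not kept, which leaves 43.2% and 47.0% of positions in their start windows and 39.7% and 36.3% in their bodies where a 39-base read is unique. Hspa1a had 4 and 2 Pol II reads at the start (log2 ratio 2.03 ± 0.77, adjusted p = 0.0209) and 0 in the body in both libraries, and its start call was lost without Pol II replicate 1 or either input (adjusted p = 0.375, 0.308 and 0.0512). Hspa1b had 2 and 6 start reads (1.30 and 2.17 RPM; 3.12 ± 0.85) and is treated with Sox6, because its body reads lie in a single stretch. Neighbouring Hspa1l, whose start is 579 bp from that of Hspa1a, had 4 and 3 reads on 9 and 21 of input and passed neither test (log2 ratio 1.53 ± 0.71 and 0.84 ± 0.41; adjusted p = 0.0667 at the start). Its start did pass without Pol II replicate 2 (2.22, adjusted p = 0.0109), in a window of 250 bp on each side (1.86, 0.0374), by limma on log2 values with 0.5 reads added (1.64, 0.0126), among genes with at least 30 reads (1.62, 0.0272) and in 4 further alternatives.

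All 6 HSP90 and myosin chaperone genes were higher than input in the body (median log2 ratio 2.21), and 3 of 6 at the start (median 1.30). Hsp90ab1, the constitutive cytosolic HSP90, led with 20 and 32 start reads (13.0 and 11.6 RPM) on 3 and 10 of input (log2 ratio 5.51 ± 0.60) and with 10.7 and 11.3 RPKM in the body (4.10 ± 0.21). Hsp90b1 of the ER had 11 and 21 start reads (7.15 and 7.60 RPM; 3.55 ± 0.47) and 3.62 and 3.58 RPKM in the body, a start window it shares in part with BC030307, whose start is 302 bp away. Unc45b, the myosin chaperone of striated muscle, had 5 and 18 start reads (3.25 and 6.52 RPM; 2.48 ± 0.49) and 3.41 and 3.42 RPKM in the body (2.89 ± 0.12). Its general relative Unc45a held 2.69 and 2.28 RPKM in the body (2.29 ± 0.18).

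The 3 genes of this group without a start call had few Pol II reads at the start of their longest model and more at some of their other annotated starts. Smyd1 had 0 and 0 Pol II reads on 3 and 10 of input at the start of its longest model, which lies 603 bp from that of Cd8b1, but 3.45 and 3.71 RPKM in the body (log2 ratio 2.10 ± 0.07). Of its 5 other annotated starts, that 27 bp further on also had 0 and 0 Pol II reads, and that 105359 bp further on had 11 and 13 on 24 and 24 of input. At the 3 that lie 59952 to 60001 bp further on, the same windows of 1000 bp held 14 to 17 and 48 to 50 Pol II reads on 21 and 27 of input. Hsp90aa1, the inducible cytosolic HSP90, had 2 and 1 start reads on 19 and 24 of input (0.11 ± 0.65), but 14 to 18 and 15 to 18 reads at 4 annotated starts 6333 to 6777 bp further on, where input held 1 to 7 and 4 to 7. Unc45a had 1 and 1 start reads on 26 and 23, and 5 to 6 and 10 at starts 786 to 799 bp further on with input at 12 and 12 to 14. With the windows of all annotated starts of a gene joined and the spread of limma estimated robustly, an alternative chosen after seeing the data, the log2 ratios became 3.15 (Smyd1), 2.86 (Hsp90aa1) and 1.45 (Unc45a), with adjusted p = 6.58e-33, 6.06e-14 and 0.0111. In the body Hsp90aa1 held 2.22 and 1.71 RPKM (1.88 ± 0.26). Its 4 starts at 6333 to 6777 bp lie within this body. The window around that at 6333 bp held 18 and 17 of the 62 body reads of both Pol II libraries together. The body level of Hsp90aa1 thus includes much Pol II at these starts.

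Small heat shock proteins had the highest group median of the log2 ratio in the body. Of the 9 genes, 8 of 8 tested were higher at the start (median log2 ratio 3.52) and 8 of 9 in the body (median 3.08). Cryab, the αB-crystallin that protects desmin and titin, had the highest body level of all 83 genes, 12.9 and 14.0 RPKM on 0.782 and 0.916 of input (4.0 ± 0.20). Its start window held 18 and 36 reads (11.7 and 13.0 RPM; 4.14 ± 0.41). Hspb2, a muscle partner of Hspb3, is transcribed away from Cryab with starts 404 bp apart, so that their start windows overlap and a read between them counts for both. It had 12 and 30 start reads (7.80 and 10.9 RPM; 3.94 ± 0.45), and its body, which lies outside the start window of Cryab, held 6.64 and 6.47 RPKM (3.71 ± 0.52).

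Hspb7, a small heat shock protein of heart and skeletal muscle, was instead low at the start, with 4 and 6 reads (2.60 and 2.17 RPM) on 18 and 16 of input (1.76 ± 0.64; not called in a window of 250 bp on each side or with 5′ ends moved by 75 bp, adjusted p = 0.0534 and 0.0985), and high in the body at 4.83 and 6.28 RPKM (3.30 ± 0.26). Hspb1 (HSP27, a regulator of actin filaments) had 6 and 12 start reads (3.67 ± 0.63), in a window with 64.3% of positions unique, and 5.11 and 3.16 RPKM in the body. Hspb6 (HSP20) had 6 and 10 (3.37 ± 0.63) and 4.27 and 2.38 RPKM. Hspb8, the partner of Bag3 in chaperone-assisted autophagy, had 5 and 12 reads on 4 and 4 of input (4.42 ± 0.77) and 2.34 and 2.19 RPKM in the body. For Hspb1 and Hspb6 the first Pol II library gave the higher body level and for Hspb7 the second, and in each case both lay above both inputs.

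Hspb3 is a single short exon gene with 4 and 6 start reads on 23 and 20 of input (1.43 ± 0.62, adjusted p = 0.0468) and 2.31 and 3.87 RPKM in the body. Its start call was lost without Pol II replicate 1 or Input replicate 2 (adjusted p = 0.0955 and 0.0977), with all 6 libraries in 1 fit (0.0655), with a robust spread (0.0503), with 5′ ends moved by 75 bp (0.0861) and in the 500 bp after the start alone (0.0556), and its body call without either Pol II library or Input replicate 1 (0.0819, 0.206 and 0.0507). Hspb9, known from the testis, had 4 and 6 start reads on 8 and 8 of input (2.79 ± 0.71) and 2.88 and 3.20 RPKM in the body, a call lost without either Pol II library (adjusted p = 0.158 and 0.134). The bodies of Hspb3 and Hspb9 span just 281 and 226 bp, so their body levels and calls rest on very few reads. Hspb11, which despite its name is a component of intraflagellar transport, had 0 and 4 start reads on 3 and 2 of input, too few to test. Its body held 0.656 and 0.633 RPKM, at the level of input (log2 ratio -0.01 ± 0.23).

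The mitochondrial chaperonin pair were both higher at the start and in the body. Hspd1 (HSP60) had 3 and 3 start reads on 2 and 5 of input (3.37 ± 0.92) and 2.01 and 1.76 RPKM in the body (1.47 ± 0.23). Hspe1 (HSP10) had 4 and 3 on 3 and 6 (3.12 ± 0.87) and 2.19 and 2.57 RPKM (2.14 ± 0.39). Since their start windows overlap almost wholly, the start reads are largely the same reads, while the bodies run in opposite directions and are separate. In these 2 genes the printed heat shock element stands beside body levels above the median of the 83 genes, and in Hsph1 beside levels under it.

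All 4 J proteins of class A, the closest relatives of bacterial DnaJ, were higher in both windows (medians 3.33 and 1.76). Dnaja1, the main cytosolic partner of Hspa8, had 7 and 19 start reads on 1 and 8 of input (5.30 ± 0.77) and 4.17 and 4.19 RPKM in the body (2.43 ± 0.14). Dnaja3, the mitochondrial member, had the most start reads, 19 and 24 (12.3 and 8.69 RPM; 3.43 ± 0.39), with only 0.984 and 1.36 RPKM in the body (1.10 ± 0.20). Dnaja2 had 5 and 10 (3.23 ± 0.64) with 2.47 and 2.70 RPKM. Dnaja4 was lowest at the start with 1 and 6 reads (2.45 ± 0.83) and 1.68 and 1.98 RPKM in the body; its start call was lost without Pol II replicate 2 or Input replicate 1 (adjusted p = 0.518 and 0.0571).

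Of the 13 J proteins of class B, 9 were higher at the start (median 3.44) and 8 in the body (median 1.03). Dnajb12, of the ER membrane, had 13 and 37 start reads (8.45 and 13.4 RPM; 3.51 ± 0.38) and 2.77 and 2.90 RPKM in the body. Dnajb6, which keeps proteins from aggregating and is found at the Z disc of muscle, had 12 and 21 (7.80 and 7.60 RPM; 3.44 ± 0.45) and 1.91 and 1.93 RPKM. Dnajb1, the stress-inducible partner of HSP70, and Dnajb5, its close relative, had the same start reads, 9 and 15 (5.85 and 5.43 RPM; 3.98 ± 0.58 and 3.94 ± 0.58). Their bodies were unlike: Dnajb1 held 4.03 and 2.80 RPKM and Dnajb5 11.3 and 11.4 RPKM (3.93 ± 0.14), the highest of the J proteins. Dnajb8 was lowest with 0 and 1 start reads and 0 and 0.740 RPKM in the body. Dnajb3, Dnajb7, Dnajb8 and Dnajb13 passed neither test. All of them were higher at the start with scaling to background and with 2 reads added, and Dnajb13 also in the 500 bp after the start alone. Adding the same 2 reads to every library raises sparse windows of the shallower Pol II libraries by construction. In the body, Dnajb13 had a log2 ratio of -0.95 without Input replicate 1. Dnajb14 passed at the start alone, with 0.631 and 0.673 RPKM in the body.

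Of the 28 J proteins of class C, a group that shares little but the J domain, 21 of 27 tested were higher at the start (median 2.21) and 14 of 28 in the body (median 0.83), with 3 lower. Dnajc19, a motor subunit of mitochondrial protein import, had 21 and 48 start reads (13.6 and 17.4 RPM; 4.21 ± 0.37) and 5.85 and 5.86 RPKM in the body (2.89 ± 0.12). The annotated Dnajc19 overlaps Fxr1, and reads do not show which gene their Pol II belongs to. Dnajc5, the cysteine string protein of secretory vesicles, had 10 and 25 (6.50 and 9.05 RPM; 3.81 ± 0.48) and 3.04 and 3.28 RPKM. Dnajc14, of the ER membrane, had 14 and 13 (9.10 and 4.71 RPM; 3.53 ± 0.51) and 2.15 and 2.40 RPKM.

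Dnajc3, with its ER stress element, had 4 and 5 start reads on 3 and 2 of input (4.16 ± 0.88) and 1.04 and 1.34 RPKM in the body (1.29 ± 0.15). The 3 genes with this element were all higher in both windows, as were 60.2% of the 83 genes and 24.7% of all genes. Their body levels ran from 1.04 to 10.1 RPKM. Dnajc25 lay lowest of the genes tested at the start, with 0 and 0 start reads on 14 and 13 of input (log2 ratio -1.32, adjusted p = 0.0689; lower, at -2.18 and 0.000557, with all its starts joined and a robust spread) and 0.528 and 0.508 RPKM in the body on 0.657 and 0.647. Dnajc6 had 0 and 0 on 3 and 0, too few to test, and 0.125 and 0.102 RPKM in the body on 0.258 and 0.241 (-1.17 ± 0.22). Dnajc5b, a relative of Dnajc5 known from the testis, held 0.166 and 0.157 RPKM in the body (-1.49 ± 0.21). Dnajc5g held 0.351 and 0.0977 RPKM (-1.59 ± 0.66), a lower call that was lost without either Pol II library (adjusted p = 0.144 and 0.584) and in several other fits.

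All 6 BAG proteins were higher at the start (median 3.12) and 5 of 6 in the body (median 1.80). Bag3, which links HSP70 to small heat shock proteins and to autophagy at the Z disc, had 7 and 13 start reads (4.55 and 4.71 RPM; 3.41 ± 0.57) and 1.87 and 1.99 RPKM in the body. Bag2, an inhibitor of the ubiquitin ligase Stub1, had 8 and 12 (5.20 and 4.34 RPM; 3.23 ± 0.55) and 2.31 and 3.13 RPKM. Bag6, a holder of membrane proteins on their way to the ER, had 10 and 8 (6.50 and 2.90 RPM; 2.10 ± 0.50) and 3.19 and 3.30 RPKM. Bag5 was lowest with 3 and 6 (3.08 ± 0.79), in a start window that a gene 4 bp away shares, and its body call at 1.59 and 1.44 RPKM was lost without either Pol II library (adjusted p = 0.0880 and 0.0562). Bag4 held 0.483 and 0.915 RPKM in the body, on 0.756 in both inputs. Hsf1 itself had 8 and 14 start reads (5.20 and 5.07 RPM; 3.25 ± 0.53) and 2.12 and 1.79 RPKM in the body (1.27 ± 0.15), 166 bp from the start of Bop1.

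The lists of Pol II peaks that the authors called give a coarser view of the same genes. A called peak overlapped the start window of 19 of the 83 genes in replicate 1 (22.9%, against 7.30% of all genes) and of 26 in replicate 2 (31.3%, against 11.2%; exact binomial 95% interval 21.6 to 42.4 for the chaperone genes, for counting error only). In both lists were 16 (19.3%, against 5.38% of all genes): Hspa2, Hspa5, Hspa8, Hsp90ab1, Hsp90b1, Unc45b, Cryab, Hspb2, Dnaja1, Dnaja3, Dnajb5, Dnajb6, Dnajb12, Dnajc5, Dnajc14 and Dnajc19. Most of the 64 start windows that were higher than input by reads thus held no called peak, and 60 and 53 of the 83 genes had no Pol II read of a called peak in their body (72.3% and 63.9%, against 90.7% and 86.7% of all genes).

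For 23 of the 83 genes another start was within 1000 bp (27.7%, against 11.8% of all genes), 6 of them as pairs within the set, and 17 overlap another annotated gene (20.5%, against 3544 of all 22219 genes). Where windows are shared in this way, start reads of both genes cannot be told apart. The interval given for called Pol II peaks counts such genes as independent.

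**Figure D3:**
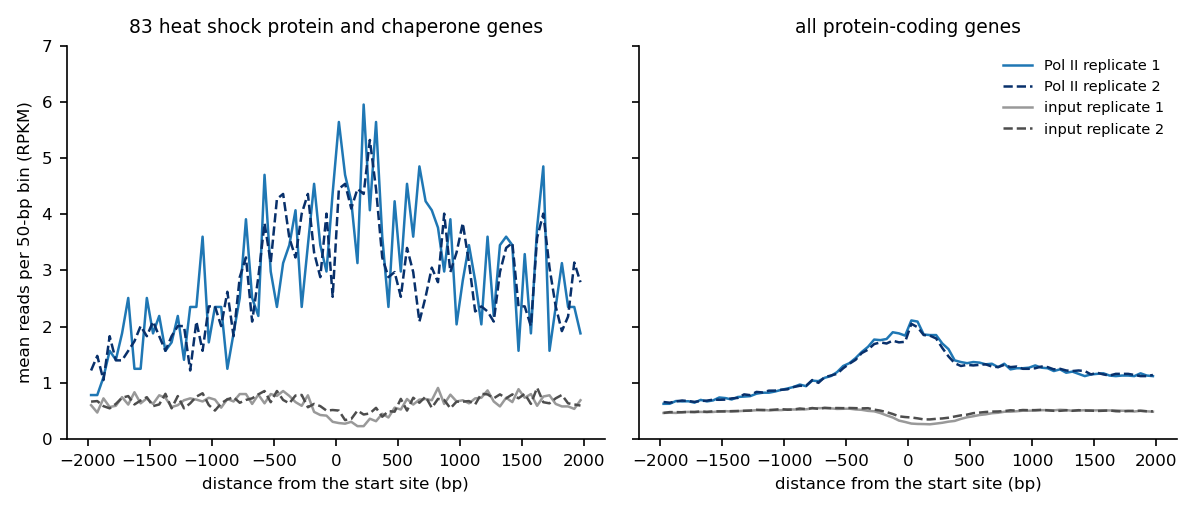
Mean reads (RPKM) in 50-bp bins from 2000 bp before to 2000 bp after the start, for the 83 genes and for all protein-coding genes, 1 line for each Pol II and input library. Pol II of the chaperone genes reaches 5.95 and 5.32 RPKM and falls on both sides. It stands at 4.85 and 4.01 RPKM at 1675 bp, a bin that includes reads of the single stretch in Hspa1b. Pol II of all genes reaches 2.11 and 2.05, and input dips at the start in both sets.

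Pol II reads were densest just after the start. Averaged over the 83 genes, Pol II reached 5.95 RPKM in replicate 1 and 5.32 in replicate 2, in the bins 225 and 275 bp after the start, where all genes reached 2.11 and 2.05 at 25 bp. Between 1 and 2 kb before the start the chaperone genes were at 1.80 and 1.71 RPKM and between 1 and 2 kb after it at 2.82 and 2.78 (all genes: 0.730 and 0.738 before, 1.17 and 1.19 after). The values after the start include the single stretch of reads in Hspa1b, which lies in this range. Input did not share this shape: it was lowest at 0.230 RPKM 175 bp after the start in replicate 1 and at 0.338 RPKM 75 bp after it in replicate 2. Ratios to input at the start are therefore larger than the Pol II reads alone would give, for these genes and for all genes.

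The balance between start and body was measured as the ratio of Pol II reads per kilobase in both windows, over genes that were higher than input in both. Its median was 1.49 over 50 chaperone genes (1.35 in replicate 1 and 1.73 in replicate 2) and 1.97 over 5492 genes in all (1.99 and 1.88). Start-heavy members, with a ratio over 3 in both libraries, were Dnaja3 (12.6 and 6.38), Dnajb11 (4.96 and 4.41), Dnajb4 (3.30 and 4.22), Dnajb6 (4.08 and 3.94) and Dnajb12 (3.05 and 4.62). For Dnajb11, 7 replicate 2 start reads lay in 1 run of 50 bp before the start (chr16:22857449-22857498) and 4 outside it. In replicate 1 these were 0 and 7. A start of Tbccd1 also lies before that of Dnajb11, and which gene the reads of this run belong to was not tested. Below 1 in both libraries were Dnajb5 (0.519 and 0.476), Hspb7 (0.538 and 0.346), Cryab (0.907 and 0.928), Hspd1, Dnajc11, Hspb9 and Hspa1b. The body of Hspb9 spans just 226 bp with very few reads, and the body reads of Hspa1b are those of a single stretch. The body call of Dnajb11 was lost without either Pol II library (adjusted p = 0.0808 and 0.0806), and the start call of Dnajc11 without Pol II replicate 1 or either input (0.0532, 0.0708 and 0.102). These genes were chosen after their values were seen, and no test of the difference between the medians was made. The shares of all genes with a ratio over 3 or below 1 were not counted, so the list does not set these members apart. With input subtracted the medians were 1.89 and 2.66.

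Sox6 reads were sparse at these genes, and few windows passed the test against input. At the start 1 of the 76 genes tested was higher than input (1.32%, against 0.338% of all genes), Cryab, and in the body 7 of 83 were (8.43%, against 6.93% of all genes): Hspa1b, Unc45b, Hspb7, Dnajb5, Dnajb2, Dnajc17 and Dnajc18. Sox6 over input had a median log2 ratio of 0.74 at the start (0.65 over all genes) and 0.20 in the body (0.17 over all genes). At an unadjusted p under 0.05, 15 genes were higher at the start (19.7%, against 12.1% of all genes tested) and 15 of 83 in the body (18.1%), near the share of all genes (3591 of 19410). Both Sox6 libraries lay above both inputs for 29 genes at the start (34.9%, against 22.4% of all) and for 30 in the body (36.1%, against 32.4%). Genes with too few reads at the start to test for Sox6 were Hspa8, Hspd1, Hspe1, Hspb11, Dnajc3, Dnajc6 and Dnajc21.

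Cryab had 11 and 20 Sox6 reads in its start window (3.68 and 13.6 RPM) on 13 and 20 of input (0.592 and 0.825 RPM). Both libraries were above both inputs and the second was the higher, with a log2 ratio of 2.99 ± 0.46 (adjusted p = 2.19e-07). The body of Cryab held 0.695 and 1.01 RPKM of Sox6 on 0.782 and 0.916 of input (0.02 ± 0.47). Hspa13, an HSP70 of microsomes, came next at the start by adjusted p, with 9 and 3 Sox6 reads (3.01 and 2.04 RPM) on 10 and 11 of input (0.455 and 0.454 RPM) and a log2 ratio of 2.62 ± 0.70 that did not pass (adjusted p = 0.0526). It passed in 9 of 21 alternatives, among them repeated positions counted once (0.0458), scaling to background (0.0186), no filter (0.00431) and the fit without Sox6 replicate 2 (0.00852), but not without Sox6 replicate 1 or either input (0.128, 0.877 and 0.263). The start window of Hspb2, which overlaps that of Cryab, had 3 and 8 Sox6 reads on 12 and 17 (1.55 ± 0.68, adjusted p = 0.330). Without Sox6 replicate 1 its log2 ratio was 3.17. It passed the test with windows of 1000 bp on each side (2.31, 1.31e-06). It also passed by limma on log2 values with 0.5 or 2 reads added (2.02 and 2.26, 0.0302 and 0.00870). Added reads are the same in every library and raise the shallower Sox6 libraries more, by construction.

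The Sox6 peak common to both replicates at this place is chr9:50561022-50561121, in the 5′ UTR in exon 1 of the longest Cryab model, with its centre 208 bp after that start and 54 bp before another annotated start of Cryab. In the 450 bp around its centre were 10 and 17 Sox6 reads (3.35 and 11.6 RPM), 10 and 17 Pol II reads (6.50 and 6.15 RPM) and 8 and 12 input reads (0.364 and 0.495 RPM). Sox6 and Pol II thus stood above input over the same stretch. The common peak holds 1 E-box (CAGCTG or CAGGTG, the site of MyoD and its relatives) and no match to the Sox letters ACAAAG or ACAATG on either strand, and the peak of replicate 1 (chr9:50561072-50561151) holds neither. The peak of replicate 2 begins further upstream, chr9:50560772-50561071, and holds 3 Sox matches and the same E-box. Printed with these in capitals are the part before the Cryab start (chr9:50560772-50560862, plus strand) and the 30 bases around each of the 2 other matches, the E-box being the one within the common peak:
Cryab upstream: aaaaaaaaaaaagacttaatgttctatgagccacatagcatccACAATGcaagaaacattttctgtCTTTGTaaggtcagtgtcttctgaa
Cryab Sox match: ctctaggactccACAAAGagttaatgtccc
Cryab E-box: ggggcccaccagCAGCTGcttgggattcca

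These letters are frequent in Sox6 peaks of the whole series: 52.0% of the 1066 common peaks hold a Sox match and 55.5% an E-box. In the promoters of the 83 genes a Sox match was at 21.7% and an E-box at 28.9%, against 25.6% and 31.8% of all promoters.

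**Figure D4:**
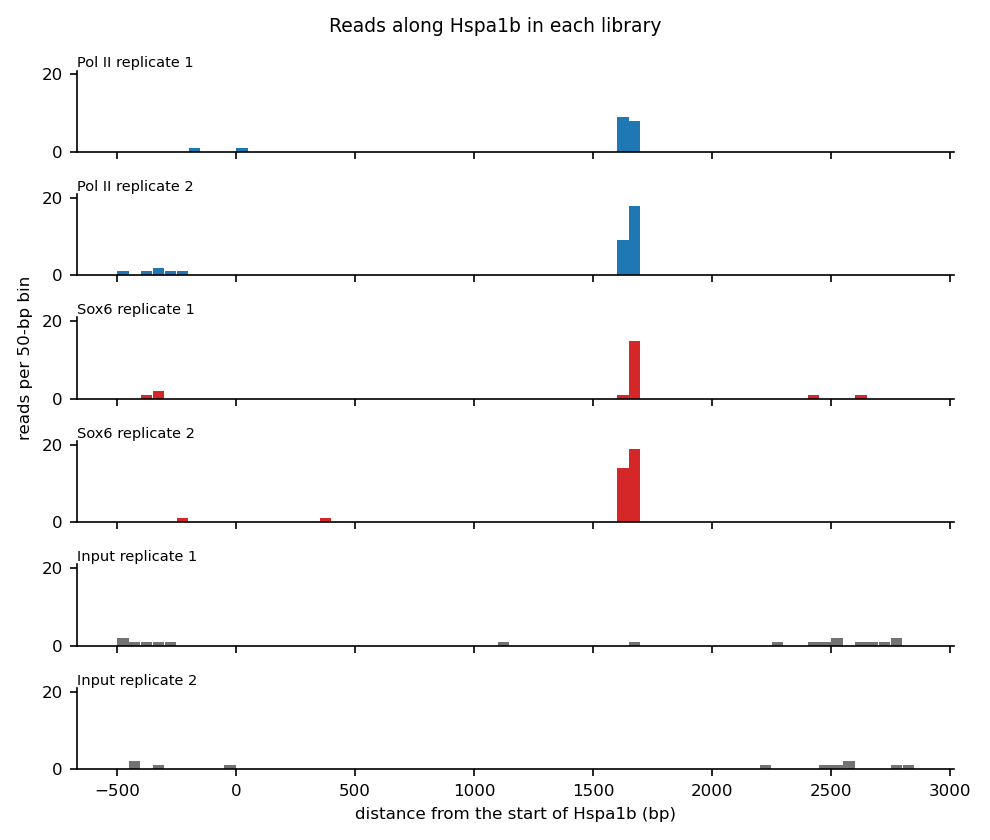
Reads per 50-bp bin along Hspa1b in each of the 6 libraries, by distance from its start in bp. In both Pol II and both Sox6 libraries nearly all reads of the gene body lie in bins near 1650 bp, and the inputs have 1 read and 0 reads there.

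Hspa1b had the largest Sox6 ratio in the body, 2.62 and 9.76 RPKM on 0.237 and 0.107 of input (4.63 ± 0.59, adjusted p = 2.79e-05), and the largest Pol II ratio, 4.80 and 4.24 RPKM (4.76 ± 0.49). Both rest on a run of 50 bp in the coding part of its single exon (chr17:35094499-35094548), printed on the plus strand, which is opposite to the gene:
Hspa1b: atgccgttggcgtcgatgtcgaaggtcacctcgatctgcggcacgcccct

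All 17 and 27 Pol II reads of the body and 16 of 18 and 33 of 33 Sox6 reads had their 5′ end in this run, against 1 of 12 and 0 of 6 input reads. Outside it the body held 0 and 0 Pol II reads and 2 and 0 Sox6 reads. The copy of the run in Hspa1a (chr17:35107417-35107466) differs by 1 base, and the run lies in a block of 75 successive positions at which a 39-base read is unique, while 837 of the 2303 positions of the body are. The same heap is in libraries of 2 antibodies and absent from both inputs; what produced it was not tested. No other member with at least 10 body reads in a library had more than 33.3% of them in a single run of 50 bp.

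For the other 6 genes Sox6 in the body exceeded input by less. Unc45b held 0.694 and 0.989 RPKM on 0.433 and 0.492 of input (0.77 ± 0.19, adjusted p = 0.0142), and Hspb7 held 1.16 and 1.86 on 0.497 and 0.675 (1.27 ± 0.39, adjusted p = 0.0408). Dnajb5 held 1.47 and 1.12 RPKM (0.88 ± 0.27), Dnajb2 0.983 and 1.56 (1.0 ± 0.30), Dnajc17 0.777 and 0.894 (0.66 ± 0.18) and Dnajc18 1.13 and 1.32 (0.69 ± 0.16). In each case both Sox6 libraries lay above both inputs. None of these 6 calls held when each library was left out: that of Unc45b was lost without Sox6 replicate 2 (adjusted p = 0.371), and those of Hspb7 (0.0933 and 0.496), Dnajb5 (0.625 and 0.155), Dnajb2 (0.0650 and 0.526), Dnajc17 (0.147 and 0.323) and Dnajc18 (0.0665 and 0.226) without either Sox6 library. Those of Hspb7 and Dnajb5 were also lost without Input replicate 1 (0.0676 and 0.0515). Pol II was also above input in the bodies of all 6.

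**Figure D5:**
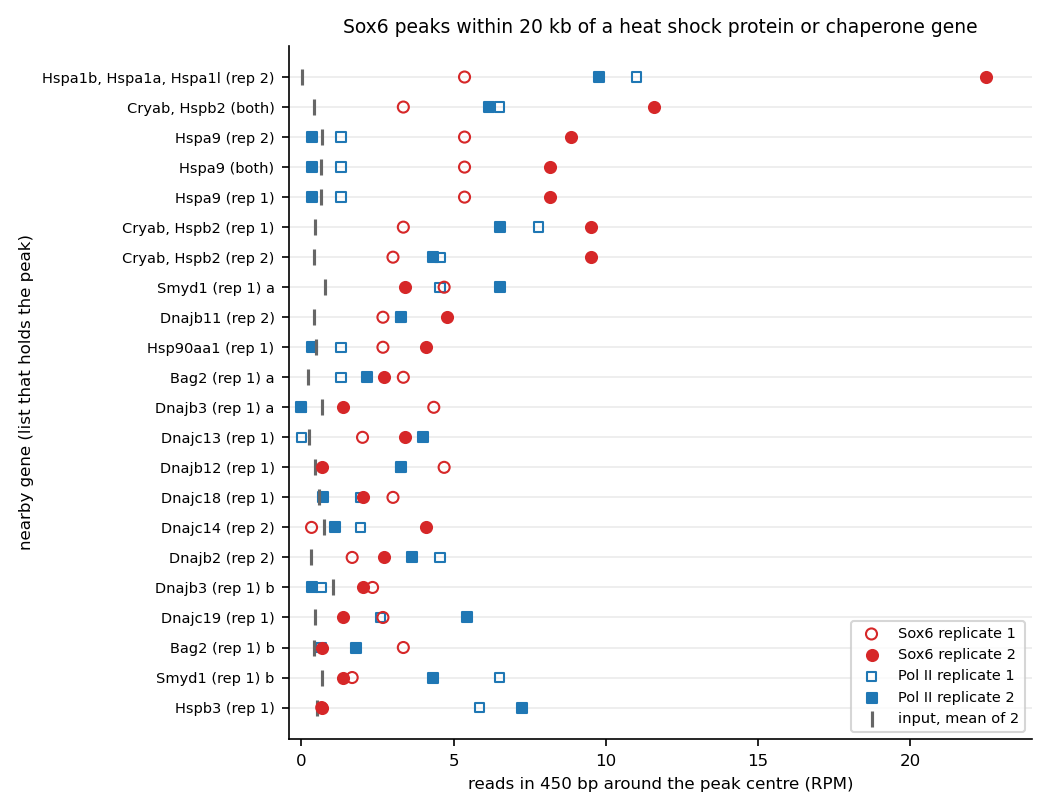
Reads (RPM) in 450 bp around the centre of each Sox6 peak within 20 kb of one of the 83 genes: circles for Sox6, squares for Pol II, open for replicate 1 and filled for replicate 2, and a bar for the mean of the inputs. The names give the nearby gene and the list that holds the peak; the peaks in Hspa1b, at Cryab and near Hspa9 have the most Sox6 reads, and that near Hspb3 is among those with Pol II above Sox6 in both replicates.

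By peak position, 3 of the 83 genes had a common Sox6 peak within 20 kb (3.61%, exact binomial 95% interval 0.752 to 10.2, for counting error only), where 4.32% of all genes did. They are Cryab and Hspb2, which share the peak described, and Hspa9. The interval counts genes as independent, which genes that share a peak are not. In the list of replicate 1 were 12 genes (14.5%, against 9.64% of all) and in that of replicate 2 were 9 (10.8%, against 6.65%). The 9 include Hspa1a, Hspa1b and Hspa1l, which share 1 peak, and Cryab and Hspb2, which share another. The median gene is of like length among the 83 and among all genes, 16.8 and 15.1 kb. The peak near Hspa9 (chr18:35121142-35121301) has its centre 7210 bp before the start, with 16 and 12 Sox6 reads (5.36 and 8.17 RPM), 16 and 14 of input (0.728 and 0.577 RPM) and 2 and 1 of Pol II. Both Sox6 libraries lay above both inputs in RPM there, while Pol II was at 1.30 and 0.362 RPM. The authors used these reads to call the peaks, so the counts describe the peaks and test nothing.

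The remaining peaks belong to the list of a single replicate. Smyd1 has 2 in replicate 1, in intron 5 (chr6:71177212-71177551) with 14 and 5 Sox6 reads on 18 and 18 of input and in intron 1 (chr6:71209872-71209951) with 5 and 2 on 17 and 14. Bag2 has 2, of which that in intron 1 (chr1:33808212-33808431) held 10 and 1 Sox6 reads on 6 and 13 of input. That 27938 bp after its start held 10 and 4 on 3 and 8, and the start of Rab23 is nearer to it, at 9448 bp. The Hspa1b run carries a replicate 2 peak (chr17:35094512-35094551), which is also within 20 kb of Hspa1a and Hspa1l. The peak after Hspb3 (chr13:114452112-114452251) held just 2 and 1 Sox6 reads, but 9 and 20 of Pol II (5.85 and 7.24 RPM).

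Near the J protein genes the peaks of replicate 1 were at Dnajb3 (13 and 2 Sox6 reads, 457 bp from the start of Ugt1a1, and 7 and 3 for another), Dnajb12 (14 and 1), Dnajc13 (6 and 5), Dnajc19 (8 and 2, nearest to Fxr1) and Dnajc18 (9 and 3, in exon 6). That near Hsp90aa1 had 8 and 6, and its nearest start is that of 1700001K19Rik. The peaks of replicate 2 were at Dnajb2 (5 and 4 Sox6 reads, 3473 bp past the gene), Dnajb11 (8 and 7, nearest to the start of Tbccd1) and Dnajc14 (1 and 6, nearest to the start of 1110012D08Rik). Scaled to depth, the Dnajb12 peak had 4.69 and 0.681 RPM of Sox6, the first of Dnajb3 4.35 and 1.36 and that of Dnajc14 0.335 and 4.09, mainly in the library on which each was called, while the second of Dnajb3 had 2.34 and 2.04. Of the 83 genes, 18 had a peak in any list (21.7%, against 11.4% of all genes), 9 of them in replicate 1 alone (10.8% of the 83, against 4.75%) and 6 in replicate 2 alone (7.23%, against 1.76%). Of these 6, Hspa1a, Hspa1b and Hspa1l are counted through the same peak, that of the Hspa1b run.

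Other chaperone genes, outside the rule, were also mostly above input in Pol II. Of all genes tested, 45.2% were higher at the start and 37.7% in the body, and 24.7% of all genes were higher in both. The 8 subunits of TRiC, the cytosolic chaperonin that folds actin and tubulin (Tcp1 and Cct2 to Cct8), were all higher at the start (median log2 ratio 3.44) and in the body (1.81), with body levels from 0.545 RPKM (Cct6a) to 3.91 (Cct2). Of 11 partners of HSP90 and HSP70, 10 were higher in both windows (medians 2.72 and 1.29), such as the ubiquitin ligase Stub1 at 5.55 and 3.42 RPKM and Ptges3 (p23) at 3.06 and 3.05 RPKM. Fkbp5, an HSP90 partner induced by glucocorticoids, was lower in the body at 0.253 and 0.233 RPKM (log2 ratio -1.12, adjusted p = 5.29e-06). Of 12 ER folding genes, 12 were higher at the start and 11 in the body (medians 3.34 and 1.67), led by Xbp1 at 6.31 and 6.80 RPKM and Ddit3 at 5.57 and 7.29 RPKM, both transcription factors of ER stress. Hsf2 was higher in the body (2.50 and 2.23 RPKM; log2 ratio 1.25) but not at the start (1.60, adjusted p = 0.0618), and Hsf4 in neither.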

How the data were processed

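Per the labels and the methods of the study, chromatin was fixed and immunoprecipitated with Abcam antibodies to Sox6 or Pol II, and reads were aligned by the authors with Bowtie (version 0.12.5 and build mm9 in the submitters' processing notes) and kept where they map to a single place. The authors deposited read positions, which carry no count or normalization, and lists of peaks called with SISSRs against input; the common Sox6 peaks are those their tool found in both replicates. The deposited Pol II lists also hold a score, which was not used. Repeated positions are still in the files (2.96% to 7.88% of reads). Reads of Input replicate 1 are 36 bp long and all others 39 bp, and the inputs are several times deeper than the other libraries.

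Each read was assigned by its 5′ end to the start window and body of the longest coding model of each gene (GENCODE vM1, the same build); for 134 symbols with more than 1 gene, Hspa14 among them, the longest was kept. Each immunoprecipitation was compared with input (2 libraries each, no block) by limma with voom (R 4.3.3, limma 3.58.1) over all genes with at least 10 reads in the 4 libraries, two-sided, with Benjamini-Hochberg adjustment over all genes tested and library sizes of all mapped reads. The files hold positions, so the counts are those made here, and no other count test was run. The prior of the shared spread was infinite at the start for both Pol II and Sox6. In the body it had 17.8 (Pol II) and 22.5 (Sox6) degrees of freedom. Log2 ratios are those of the fit, which adds 0.5 reads: with windows that hold no immunoprecipitated read set to 3 reads over both libraries, the median of all genes at the start became 1.55 and that of the 83 genes stayed at 2.63. The scripts were tested on simulated data. Python 3.11.15, numpy 2.4.6, pandas 2.3.3 and matplotlib 3.10.9 were used. Sequences were read from the mm9 genome by position.

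The members, role groups, other lists, tests and alternatives were chosen with earlier results of these data known. Named by rule were members with a Sox6 peak within 20 kb, the 3 highest and the lowest at the start in each role group, muscle genes, shared or copied genes, Hsf1 and genes with too few reads; other names were chosen after their values were seen. Alternatives changed windows, scaling, filters, repeated positions, the log2 scale, the shared spread, the replicate block and the libraries included.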

Additional observations from a re-analysis of the deposited data

How the results depend on the processing

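Start windows hold few reads, which limits what can be said of single genes. In the start comparison of Pol II, the residual variance that limma shares across genes rose from 1.94 to 16.5 (1000 bp on each side), 2860 (all annotated starts joined) and 1290 (no filter), with largest values for a single window of 114000, 52700000 and 28100000, and calls fell from 64 chaperone genes to 13, 0 and 0, and over all genes from 7976 to 725, 0 and 0. A robust spread, chosen after seeing the data, gave 63, 67 and 66 chaperone genes there (7426, 8214 and 10034 genes in all). Over all genes, scaling to background gave 13601 calls, and limma on log2 values with 2 reads added gave 14796. In the body, scaling to background gave 12798 genes higher and 124 lower, against 7296 and 4415. With scaling to background and with 2 reads added, 77 and 77 chaperone genes were higher at the start, against 64, and 75 and 62 in the body, against 55. The same 2 reads enter every library. By construction, sparse windows therefore gain more in the immunoprecipitated libraries, which are shallower than the inputs, for Pol II and for Sox6.

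For Sox6 at the start, the 1 chaperone gene, Cryab, became 2 (with Hspb2 for 1000 bp and Hspa13 for the others) with 1000 bp on each side, all starts joined, repeated positions counted once, scaling to background or no filter, and likewise with a robust spread in the first, second and last of these; it became 5 with limma on log2 values with 0.5 reads added and 43 with 2 added. Over all genes the 60 calls became 170, 116, 69, 111 and 415 in that order (167, 117 and 352 with a robust spread), 345 and 10046 with 0.5 and 2 reads added, and 23 with at least 30 reads. For Sox6 in the body, the 7 chaperone genes became 13 (scaling to background) and 4 (0.5 reads added), and the 1346 genes in all became 3060 (background), 2103 (2 reads added), 2753 (no filter) and 2959 (no filter with a robust spread).

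With each library left out in turn, chaperone genes higher than input numbered 58 to 60 (Pol II, start), 49 to 57 (Pol II, body), 1 to 3 (Sox6, start) and 1 to 10 (Sox6, body), and genes in all 6510 to 7656, 6357 to 7695, 12 to 763 and 152 to 2762. The lone sample of such a fit is assumed to vary like the others. The low Sox6 counts were those without Input replicate 1 at the start (12) and without Sox6 replicate 2 in the body (152), where 1 chaperone gene remained; without Sox6 replicate 1 the start gave 763 and the body 601, and without Input replicate 2 the body gave 2762.

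Libraries of a group share replicate numbers with the other groups, and the methods speak of independent experiments and of an input for each, without saying which libraries belong to 1 experiment. Deviations from the group means of libraries with the same number correlated by 0.0348, 0.0245, -0.0570 and 0.0484 over genes. With the replicate number as a block, chaperone genes higher than input were 62, 56, 1 and 12 in the same order of comparisons, and genes in all 7908, 7495, 53 and 2859. The block ended the Pol II start calls of Hspb3 and Dnajc24 (adjusted p = 0.0542 and 0.0546) and the lower body call of Dnajc5g (0.0576). With it Hspa4l passed for Pol II in the body (0.0492) and Bag2, Dnaja1, Dnajb12, Dnajc11 and Dnajc16 for Sox6 in the body (0.0123, 0.0395, 0.0486, 0.0153 and 0.0109), and Dnajc12 became lower for Sox6 at the start (-2.47, adjusted p = 0.00491, and 0.0482 with all 6 libraries in 1 fit, against 0.0893).

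The share of chaperone genes with a Sox6 peak within 20 kb was 14.5% and 10.8% in the lists of replicates 1 and 2, the ratio of start to body became 1.89 with input subtracted, and the median body level became 0 with reads in called peaks alone. The sign turned, and apart from Dnajc6 (adjusted p = 0.226) the new value passed the test, for these genes: with scaling to background, at the start Dnajb3 (1.44) and Dnajc5g (1.36) and in the body Dnajc10 (1.21), Dnajc25 (1.15), Dnajc6 (0.30), Hspb11 (1.46), Bag4 (1.43), Dnajc9 (1.42), Dnajc15 (1.22) and Hspa12a (0.65); with 2 reads added, at the start Dnajb3 (1.26), Dnajc5g (1.16) and Smyd1 (1.53); with all starts joined and a robust spread, Smyd1 (3.15) and Unc45a (1.45). The 2 added reads are the same in every library, so a window with few or no Pol II reads, as for Smyd1, rises by construction. Where no construction is given, the cause was not tested.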
